A study of Mus musculus with 20 samples.

Results

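The major urinary protein (Mup) genes examined here were 10 genes chosen by symbol, namely Mup1, Mup2, Mup3, Mup4, Mup5, Mup7, Mup11, Mup14, Mup20 and Mup21. They occupied 12 of the 25444 loci in the deposited tables, because the symbol Mup2 stood at 3 loci. A further 12 loci carried other Mup symbols. Livers came from 20 mice of 20 weeks of age, with 5 females (F) and 5 males (M) of C57BL/6N (B6) and 5 females and 5 males of C3H/HeN (C3), inbred mice for which the labels give no treatment and no engineered allele. RNA was taken from the left lateral lobe of each liver, and the libraries, depleted of ribosomal RNA, were sequenced in 3 pools. Each mouse was caged alone, and because males and females were kept in different rooms, room and sex cannot be told apart. The libraries held 27370921 to 46835745 counts each, and 3 counts corresponded to between 0.0590 and 0.116 counts per 1e+06 counts of effective library size (CPM), the level below which a locus was treated as at the floor. Calls required an adjusted p-value under 0.001 together with an absolute log2 fold change over 0.5.

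Mup genes form a tandem cluster of related lipocalins. The proteins are made by hepatocytes, secreted into blood, filtered by the kidney and excreted in urine, where they bind small volatile molecules and act in scent communication. Liver Mup expression in mice depends on growth hormone, whose pulsatile release in males acts through the receptor and STAT5B, and on androgen and thyroid hormone. Mup20 encodes darcin, a male scent protein that attracts females. Mup4 and Mup5 are known mainly from nasal and salivary glands.

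All 12 loci lay on chromosome 4 of mm9 and on the minus strand, within a cluster of 24 loci with a Mup symbol. At its proximal end lay Mup4 (chr4:59969678-59973537), Mup7 (chr4:60079341-60083347) and the short Mup2 locus (chr4:60148785-60152728). The middle held Mup1 (chr4:60510885-60514832), Mup11 (chr4:60671339-60675267), Mup14 (chr4:60961069-60965030) and Mup5 (chr4:61492353-61496214). The distal end held Mup20 (chr4:61711269-61715151), Mup3 (chr4:61744511-61748346) and Mup21 (chr4:61808866-61811875). The reference models had 7 exons each, except that of Mup21 with 6. The other Mup2 loci were long spans that ran over neighbouring genes, one of 84130 bases (chr4:60591113-60675242) over Mup10, Mup11 and the predicted gene Gm2083, and one of 139684 bases (chr4:60961051-61100734) over Mup14 and Mup15. Mup7 and the short Mup2 locus were in turn covered by a long Mup15 locus of 73390 bases. Read pairs that fell on more than one locus, or mapped to more than one place, were not counted.

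**Figure D1:**
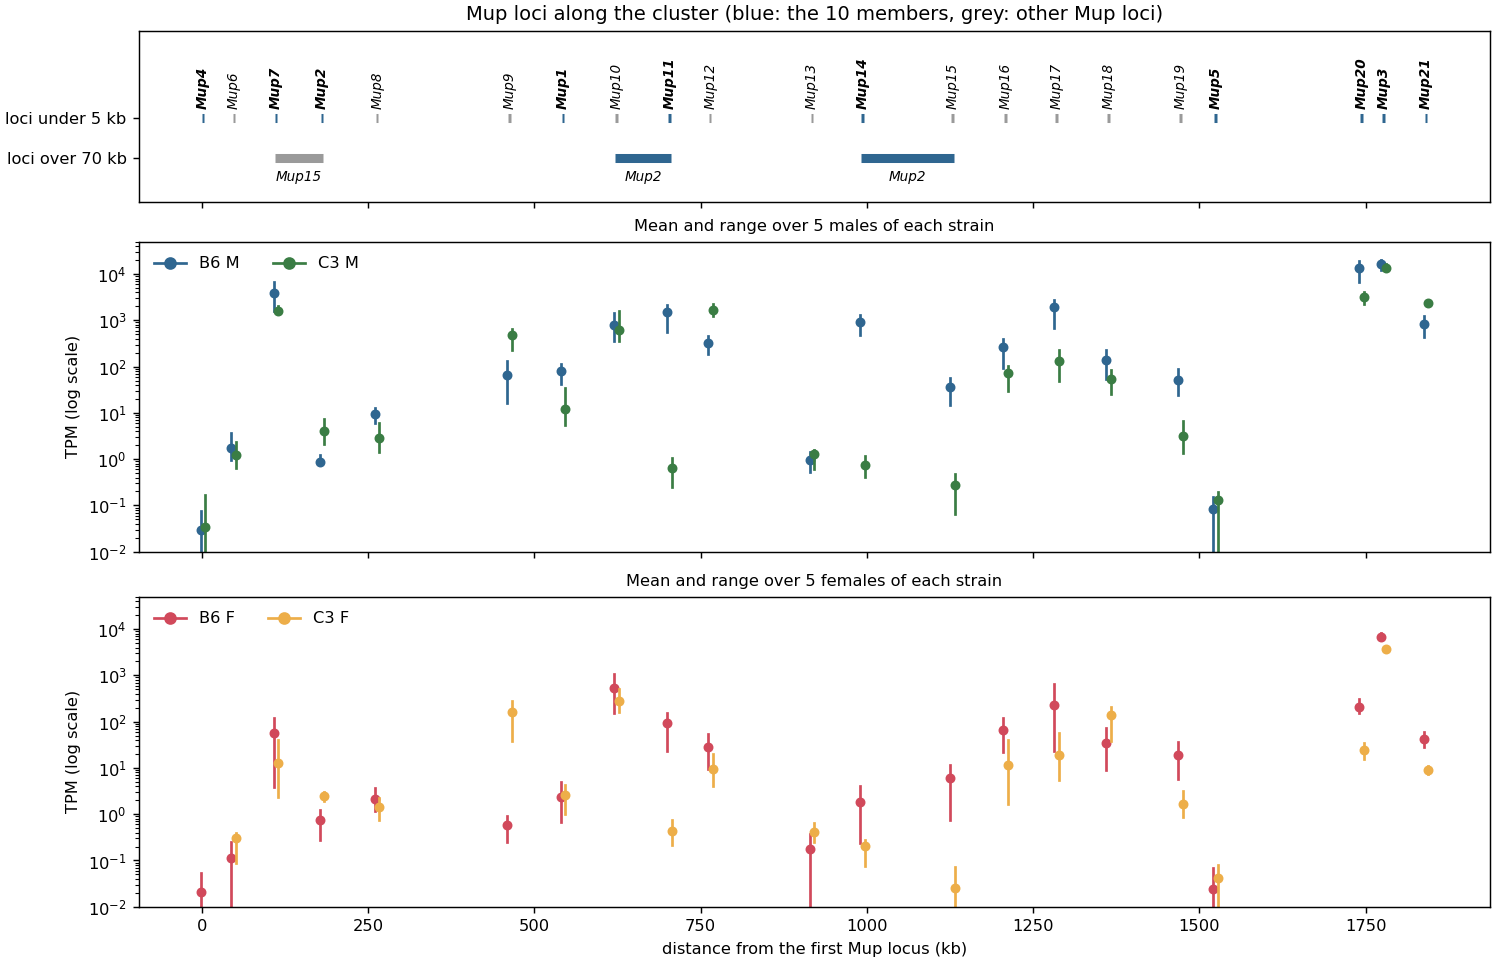
The top panel shows the 24 Mup loci by distance from the first one in kb, with the 10 members in blue, loci under 5 kb on the upper line and the 3 spans over 70 kb on the lower line. Below, points give the mean TPM and vertical lines the lowest and highest of 5 livers on a log scale for males and females of each strain, drawn slightly apart and cut at 0.01 TPM. Mup3 and Mup20 near the distal end had the highest means in males of both strains, while Mup11 and Mup14 stood high in B6 males and near the bottom in C3.

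The members differed in how much of their sequence is their own. The first 90 bases of the second coding exon are given below, from the mm9 sequence, 5′ to 3′ on the coding strand, because this stretch shows the difference directly. Capitals mark bases that differ from Mup1.
Mup1: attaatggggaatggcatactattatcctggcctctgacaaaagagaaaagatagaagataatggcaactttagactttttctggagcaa
Mup7: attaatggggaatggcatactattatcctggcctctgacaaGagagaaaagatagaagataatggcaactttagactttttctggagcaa
Mup20: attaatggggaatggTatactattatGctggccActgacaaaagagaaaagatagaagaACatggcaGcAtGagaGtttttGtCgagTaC
Mup3: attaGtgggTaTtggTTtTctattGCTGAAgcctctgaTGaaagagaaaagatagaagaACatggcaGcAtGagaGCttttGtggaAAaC
Mup21: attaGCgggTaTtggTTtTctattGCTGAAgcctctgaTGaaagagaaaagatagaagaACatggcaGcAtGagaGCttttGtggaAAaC

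The stretch of Mup1 (chr4:60514198-60514287) had the same letters as those of Mup2, Mup11 and Mup14, and Mup7 differed from it at 1 base. Mup20 differed at 13 bases, Mup3 at 25 and Mup21 at 26. Over the whole coding sequence, Mup1 was identical to Mup2 at 99.4% of positions, to Mup11 at 99.1% and to Mup7 at 98.9%, but to Mup20 at 90.6% and to Mup3 at 82.7%. Mup3 and Mup21 were 94.7% identical to each other. Of the 125-base windows of the spliced model, the length of a read, 99.9% of those of Mup3, 99.8% of those of Mup21 and 78.1% of those of Mup20 occurred at no other place in the cluster. The share was 20.1% for Mup11, 17.9% for Mup7, 16.3% for Mup1, 14.1% for Mup14 and 5.85% for Mup2. Over 250 bases, the length of both reads of a pair laid end to end, the share was 100% for Mup3, Mup20 and Mup21, 52.8% for Mup7, 44.7% for Mup14, 28.8% for Mup11, 20.1% for Mup1 and 18.3% for Mup2. Mup4 and Mup5 were unique over 100% of their windows.

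Promoter sequence from RefSeq (GRCm38.p6) was matched for 7 of the 10 genes, with no entry for Mup1, Mup5 and Mup20. The windows ran from 250 bases before to 50 bases after each start. The letters TATATAA, a form of the TATA box, occurred on either strand in 6 of the 7 windows, that of Mup7 excepted, and in 3.24% of the 32851 windows of all genes. The letters TTCNNNGAA, the core to which STAT5 proteins bind, occurred in none of the 7 windows and in 8.30% of all windows. The 60 bases that end with TATATAA, shown in capitals, are given for the 4 genes whose last coding-strand copy ended before the start. Mup11 and Mup14 had no such copy. The copy began 29 bases before the start in Mup4, 27 in Mup2, 11 in Mup3 and 8 in Mup21. How alike the stretches were was not measured, and their relation to the levels in liver was not tested.
Mup4: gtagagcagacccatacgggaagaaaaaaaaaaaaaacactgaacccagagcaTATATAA
Mup2: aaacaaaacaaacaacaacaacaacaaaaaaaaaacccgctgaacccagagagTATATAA
Mup3: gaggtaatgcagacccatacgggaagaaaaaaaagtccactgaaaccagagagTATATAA
Mup21: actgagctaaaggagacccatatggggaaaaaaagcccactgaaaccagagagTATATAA

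On GRCm38.p6 these stretches lie on the minus strand of chromosome 4 at chr4:59960690-59960749 for Mup4, chr4:60139877-60139936 for Mup2, chr4:62087322-62087381 for Mup3 and chr4:62150843-62150902 for Mup21.

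Mup loci together took a larger share of the library in males than in females. They held between 1.05% and 2.43% of all counts in B6 M and between 0.911% and 1.27% in C3 M. In females the share was between 0.275% and 0.431% in B6 and between 0.156% and 0.216% in C3. No male library overlapped a female library of either strain. The members held between 77.7% and 96.5% of the counts on Mup loci. In bulk liver, fewer expressing cells and less RNA per cell cannot be told apart.

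The make-up of this share also differed between the sexes. Mup3 held between 72.9% and 93.2% of Mup counts in B6 F and between 81.3% and 88.5% in C3 F. In males it held between 35.1% and 51.9% in B6 and between 55.1% and 63.6% in C3. Mup20 held between 23.0% and 37.9% of Mup counts in B6 M, between 10.6% and 16.4% in C3 M, and at most 3.91% in any female library. These shares leave out reads that could not be placed, so that near-identical genes count for less than their RNA.

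**Figure D2:**
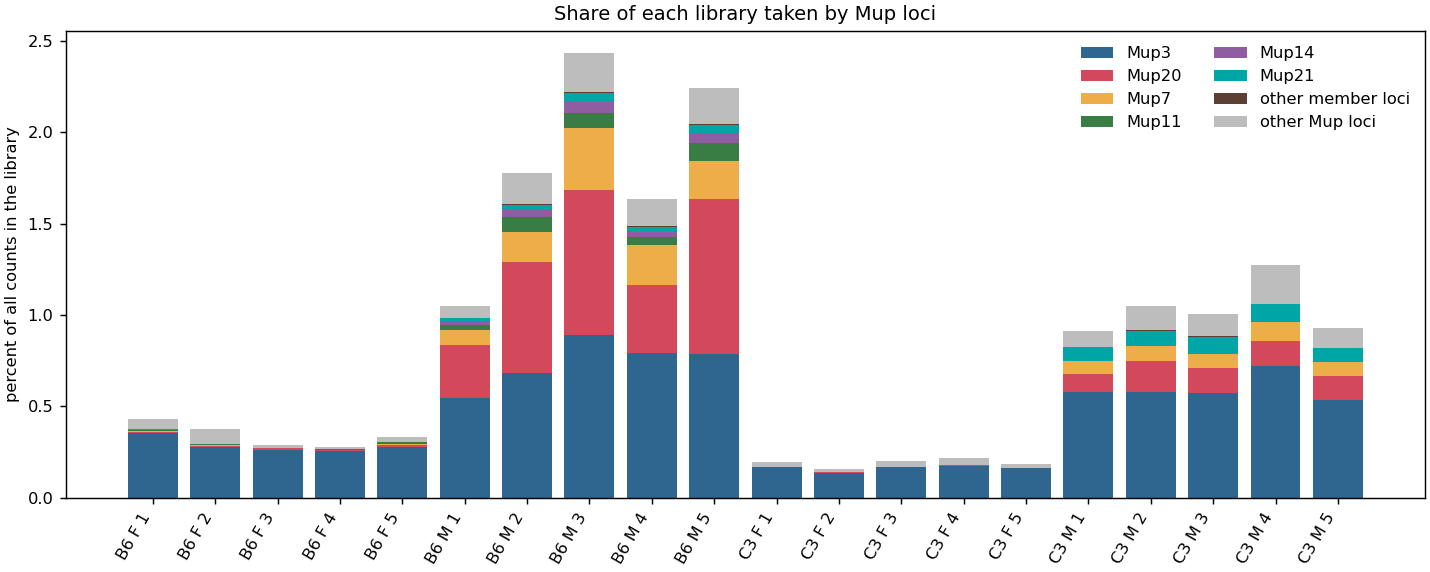
Stacked bars give the percent of all counts in each of the 20 libraries that fell on Mup loci, split by locus. The bars of B6 M reach 2.43%, those of C3 M 1.27%, those of B6 F 0.431% and those of C3 F 0.216%, and the Mup20 band is widest in B6 M.

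Levels between genes were compared per length, in deposited TPM values (transcript abundance per length). Reads that could not be placed are missing here too, so that Mup1, Mup2, Mup7, Mup11 and Mup14 count for less than their RNA. The orders given are of placed reads, and the order of RNA was not tested. In B6 M, Mup3 had 16561 ± 2827 TPM (SD, n = 5) and Mup20 13381 ± 5564 TPM, and their ranges overlapped. Mup7 followed with 3985 ± 1807 TPM, below every Mup20 value. Mup11, Mup14 and Mup21 had 1476 ± 676, 931 ± 341 and 818 ± 345 TPM, and from Mup7 to Mup21 each overlapped its neighbour in this order. Mup1 had 80.9 ± 29.2 TPM, and the short Mup2 locus 0.885 ± 0.209 TPM.

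In C3 M the order differed. Mup3 had 13487 ± 1564 TPM and stood apart from the next locus. Mup20 had 3121 ± 625 TPM, Mup21 2369 ± 296 TPM and Mup7 1614 ± 268 TPM, and neighbouring ranges overlapped. Mup11 and Mup14, which followed Mup7 in B6 M, had 0.634 ± 0.397 and 0.732 ± 0.337 TPM in C3 M.

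Among females, Mup3 had 6595 ± 867 TPM in B6 and 3757 ± 329 TPM in C3, above every value of every other member. Mup20 came next, with 206 ± 65.7 TPM in B6 F and 24.4 ± 7.27 TPM in C3 F. In B6 F, Mup11 had 91.4 ± 60.3 TPM, Mup7 58.0 ± 52.7 TPM and Mup21 41.6 ± 12.5 TPM, with overlapping ranges. In C3 F, Mup7 had 13 ± 15.7 TPM and Mup21 8.94 ± 1.5 TPM, and the Mup7 range overlapped both Mup20 and Mup21.

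Female and male livers were compared within each strain to ask which members were dimorphic. In B6, 8 of the 9 loci that passed the filter on low counts were called lower in females and none was called higher. Over all 13704 loci tested, 3.12% were called lower and 3.23% higher in B6 females. In C3, 5 of the 9 loci were called lower in females and none higher, with 2.79% called lower and 4.11% higher over all loci. Over the 9 loci the log2 fold change had a median of -4.53 for B6 and of -2.55 for C3 (-2.33 without the long Mup2 locus that was at the floor in both sexes of C3), beside 0.0018 and 0.015 over all loci tested. The 9 loci passed the filter partly through the groups in which they were high, and Mup4, Mup5 and the Mup2 locus of 139684 bases were not tested.

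Mup3, the member with the highest level in females, had 3240, 2540, 2556, 2532 and 2617 CPM in the 5 B6 females and 5450, 6975, 8777, 7578 and 7993 CPM in the 5 B6 males. In C3 it had 1667, 1329, 1611, 1841 and 1641 CPM in females and 6138, 6092, 6089, 7541 and 5597 CPM in males. Every male lay above every female in both strains. The difference was 2.71-fold in B6 (log2 fold change -1.44 ± 0.11 SE, edgeR adjusted p = 1.9e-08) and 3.98-fold in C3 (log2 fold change -1.99 ± 0.11 SE, edgeR adjusted p = 2.5e-10). Within single pools the log2 difference lay between -1.54 and -1.09 in B6 and between -2.37 and -1.81 in C3. Some within-pool values, here and below, rest on single livers. The B6 value of pool 2 rests on 2 libraries, B6 F replicate 3 and B6 M replicate 1. For C3, pool 2 held 1 female (replicate 1) and pool 3 held 1 male (replicate 4).

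Mup20, the darcin gene, had 87.8, 62.7, 74.7, 62.6 and 123 CPM in B6 females and 2945, 6221, 7775, 3609 and 8628 CPM in B6 males. The C3 females had 11.3, 7.67, 6.45, 15.2 and 11.1 CPM and the C3 males 1033, 1814, 1498, 1411 and 1351 CPM. The 4 groups did not overlap one another. Females were 69.3-fold lower in B6 (log2 fold change -6.12 ± 0.29 SE, edgeR adjusted p = 2.1e-11) and 141-fold lower in C3 (log2 fold change -7.14 ± 0.31 SE, edgeR adjusted p = 5.6e-12). Within pools the log2 difference lay between -6.38 and -5.30 in B6 and between -7.63 and -6.70 in C3.

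Mup21, the most distal locus of the cluster, had 20.3, 11, 15.8, 14.4 and 9.53 CPM in B6 females and 165, 251, 459, 216 and 427 CPM in B6 males. The C3 females had 3.37, 2.5, 2.71, 3.51 and 3.93 CPM and the C3 males 838, 900, 1047, 1038 and 778 CPM. Again no group overlapped another, and C3 held both the lowest and the highest of the 4 groups. Females were 20.9-fold lower in B6 (log2 fold change -4.39 ± 0.27 SE, edgeR adjusted p = 7.8e-10) and 299-fold lower in C3 (log2 fold change -8.23 ± 0.33 SE, edgeR adjusted p = 1.3e-12). Within pools the log2 difference lay between -4.79 and -3.37 in B6 and between -8.58 and -7.86 in C3.

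**Figure D3:**
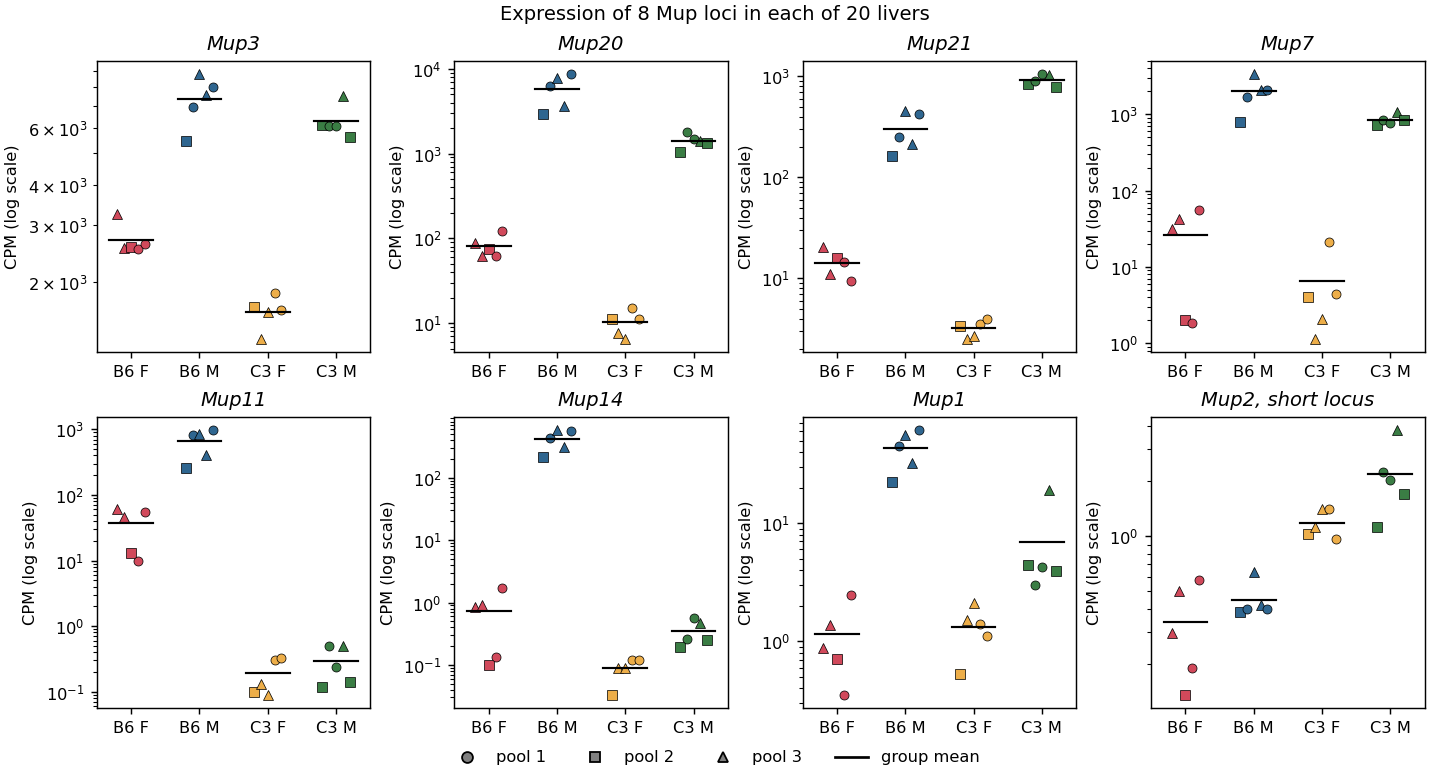
Each point is the CPM of 1 liver on a log axis, in 8 panels for 8 Mup loci, with the marker giving the sequencing pool and the black line the mean of the 5 livers of a group. Mup3, Mup20 and Mup21 separate males from females in both strains, Mup7, Mup11 and Mup14 spread widely in B6 females, and Mup11 and Mup14 fall below 1 CPM in both sexes of C3.

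Mup7, one of the near-identical genes, had 31.1, 42.0, 1.99, 1.84 and 55.7 CPM in B6 females, so that 2 of the 5 livers were far below the other 3. The B6 males had 804, 1714, 3354, 2094 and 2110 CPM. In C3 it had 4.10, 1.13, 2.10, 21.1 and 4.47 CPM in females and 738, 853, 765, 1091 and 838 CPM in males. Males lay above all females in both strains, by 80.3-fold in B6 (log2 fold change -6.33 ± 0.85 SE, edgeR adjusted p = 1.9e-05) and by 170-fold in C3 (log2 fold change -7.41 ± 0.92 SE, edgeR adjusted p = 8.1e-06). Without the pool 3 libraries the adjusted p was 0.0014 in B6 and 0.00105 in C3, so that neither call held, while the log2 fold changes were -6.48 and -6.82.

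Mup11 had 60.6, 46.7, 12.9, 9.87 and 55.5 CPM in B6 females and 255, 831, 842, 411 and 978 CPM in B6 males. In C3 every library had between 3 and 21 counts, at most 0.499 CPM, and the sexes overlapped. The B6 difference was 18.1-fold (log2 fold change -4.18 ± 0.36 SE, edgeR adjusted p = 6.7e-08), and that in C3 did not pass (log2 fold change -1.0 ± 0.95 SE, edgeR adjusted p = 0.42).

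Mup14 had 0.846, 0.925, 0.101, 0.136 and 1.69 CPM in B6 females, which corresponds to between 3 and 62 counts. The B6 males had 216, 434, 585, 314 and 568 CPM. It was thus the member with the greatest fold difference between B6 sexes, 570-fold in the fit, with within-pool log2 differences between -10.07 and -8.77. In C3 it had between 1 and 4 counts per female and between 5 and 20 per male, which did not overlap but did not pass the test (log2 fold change -2.12 ± 0.75 SE, edgeR adjusted p = 0.032).

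The same B6 females were low at several of these loci. Replicates 3 and 4 were the lowest of the 5 for Mup7, Mup11 and Mup14, and also for Mup1 and both Mup2 loci that were tested. For Mup3 the 5 B6 females differed by at most 1.28-fold, with replicate 4 the lowest, and for Mup20 replicate 4 was the lowest and replicate 3 in the middle. Replicate 3 came from pool 2 and replicate 4 from pool 1, as did replicate 5, which was the highest for Mup7 and Mup14. Among B6 males, replicate 1, the only one of pool 2, was the lowest for Mup3, Mup20, Mup21, Mup7, Mup11, Mup14 and Mup1.

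Mup1 was low in females of both strains, with 0.885, 1.39, 0.708, 0.352 and 2.45 CPM in B6 F and 0.529, 1.51, 2.10, 1.41 and 1.11 CPM in C3 F. Males had 22.2, 45.1, 55.3, 32.4 and 61.5 CPM in B6 and 4.41, 3.02, 4.22, 19.1 and 3.93 CPM in C3. Males lay above all females of their strain, and 1 C3 male, of pool 3, lay far above the other 4. The difference was 38.7-fold in B6 (edgeR adjusted p = 6.7e-08) and 5.87-fold in C3 (edgeR adjusted p = 2.9e-04). Without that C3 male the adjusted p in C3 was 0.0043 (log2 fold change -1.78), and without all pool 3 libraries it was 0.0092. The call was also lost without C3 F replicate 1 (adjusted p = 0.0012) or C3 F replicate 5 (adjusted p = 0.0011).

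Mup2 gave few counts at each of its 3 loci. The short locus had between 4 and 26 counts per B6 library and between 29 and 161 per C3 library, and it was not called between the sexes in B6 (log2 fold change -0.40 ± 0.31 SE, edgeR adjusted p = 0.33) or in C3 (log2 fold change -1.01 ± 0.23 SE, edgeR adjusted p = 0.0026), though DESeq2 called it in C3 (adjusted p = 4.1e-04). The locus of 84130 bases had between 1 and 28 counts in B6 females and between 69 and 526 in B6 males, and was called in B6 (23.1-fold, edgeR adjusted p = 3.4e-06). It had at most 2 counts in any C3 library. The locus of 139684 bases had between 1 and 11 counts in B6 males and at most 1 elsewhere. A pair of reads is counted there only if it avoids Mup14 and Mup15. At the locus of 84130 bases it is counted only if it avoids Mup10, Mup11 and Gm2083. The values of both long loci thus say little of the RNA of Mup2.

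Mup4 and Mup5, the gland-type members, were at the floor. Mup4 had at most 2 counts and Mup5 at most 3 in every one of the 20 libraries. No fold is given for them.

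**Figure D4:**
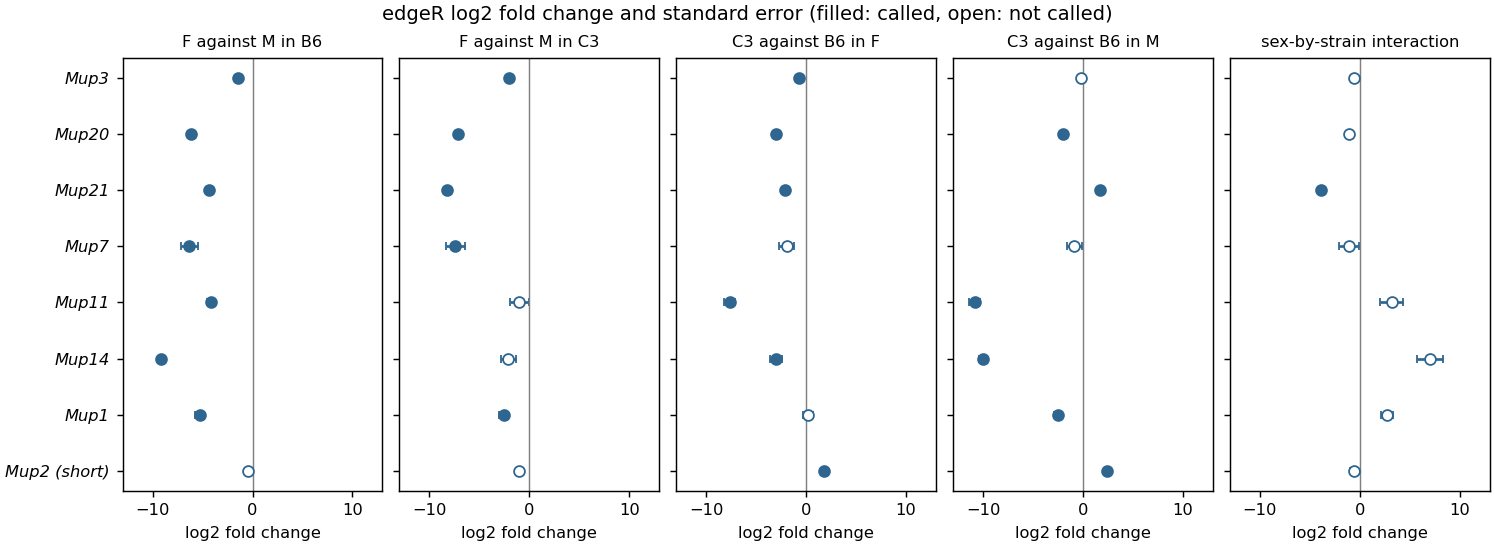
Points give the edgeR log2 fold change and bars the standard error of 8 Mup loci in the 5 comparisons, filled where called and open where not, with the first group of each comparison over the second. All filled points of the sex comparisons lie below 0, whereas in C3 against B6 males Mup21 (1.67) and the short Mup2 locus (2.42) lie above 0 and Mup11 (-10.85) and Mup14 (-10.05) far below.

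The strains were compared within each sex. In females, 5 of the 9 tested member loci were called lower in C3 and 1 higher, beside 4.77% called lower and 4.63% higher over all loci. In males, 5 were called lower in C3 and 2 higher, beside 5.55% lower and 4.09% higher over all loci. The 5 included the Mup2 locus of 84130 bases, which passed the filter mainly through B6 M (69 to 526 counts). It had at most 28 counts in any B6 female and 2 in any C3 library. As between the sexes, the loci passed the filter partly through the groups in which they were high. The median log2 fold change of the 9 loci was -2.17 in females (-1.95 with the long Mup2 locus at its bound) and -1.99 in males, beside 0.019 and 0.015 over all loci. Reads of both strains had been aligned to one reference genome, which derives from a B6 substrain. Whether C3 reads were lost or moved between copies by this was not tested.

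The uniquely readable genes did not follow 1 pattern. Mup20 was lower in C3, by 8.10-fold in females (edgeR adjusted p = 4.3e-08) and by 3.97-fold in males (edgeR adjusted p = 5.0e-06), with no overlap in either sex. Mup3 was 1.66-fold lower in C3 females (log2 fold change -0.73, edgeR adjusted p = 4.1e-05), whereas the C3 and B6 males overlapped (log2 fold change -0.18 ± 0.11 SE, edgeR adjusted p = 0.23). The Mup3 call in females did not hold without the pool 3 libraries (log2 fold change -0.59, adjusted p = 0.0026). Mup21 was lower in C3 females by 4.49-fold (edgeR adjusted p = 5.0e-06) and 3.18-fold higher in C3 males (log2 fold change 1.67 ± 0.24 SE, edgeR adjusted p = 2.7e-05). Within pools, the log2 difference of Mup21 between C3 and B6 males lay between 1.57 and 2.29.

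Mup11 and Mup14 had counts in B6 and almost none in C3. In males, Mup11 was 1841-fold lower in C3 in the fit (edgeR adjusted p = 1.8e-11) and Mup14 1063-fold lower (edgeR adjusted p = 1.1e-13). In females Mup11 was 203-fold lower (edgeR adjusted p = 2.9e-09), with no overlap. Mup14 in females was called at the limit (log2 fold change -3.02, edgeR adjusted p = 9.7e-04), the groups overlapped, and the call was lost when any 1 of the 10 female libraries other than B6 F replicates 3 and 4 was left out, with an adjusted p of at most 0.0037.

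Around Mup11, counts moved the other way at another annotated gene. Gm2083, a predicted gene whose span covers Mup10 and most of Mup11, had at most 16 counts in any B6 library, between 94 and 781 in C3 females and between 157 and 3090 in C3 males. It was 80.2-fold higher in C3 females (edgeR adjusted p = 8.0e-10) and 153-fold higher in C3 males (edgeR adjusted p = 4.3e-11). Among C3 males 1 library of pool 3 had the 3090 counts. Read pairs on bases annotated for both genes were counted for neither.

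Mup7 overlapped between strains in both sexes and was not called (log2 fold change -1.95, standard error 0.78, adjusted p = 0.062 in females and log2 fold change -0.87, standard error 0.73, adjusted p = 0.38 in males, edgeR). Mup1 was 5.75-fold lower in C3 males (edgeR adjusted p = 4.6e-05) and was not called in females (log2 fold change 0.20 ± 0.51 SE, edgeR adjusted p = 0.81). The short Mup2 locus was higher in C3, by 3.51-fold in females (edgeR adjusted p = 4.7e-05) and 5.36-fold in males (edgeR adjusted p = 7.5e-07), with no overlap in either sex. The call in females was lost without the pool 3 libraries (log2 fold change 1.91, adjusted p = 0.0035). The Mup2 locus of 84130 bases was not called between females (edgeR adjusted p = 0.0046), but was called with DESeq2 (adjusted p = 3.8e-05), with the replicate number as a block (edgeR adjusted p = 3.2e-04) and when B6 F replicate 4 was left out (edgeR adjusted p = 3.8e-04). Among males its level was lower in C3 by at least 72.8-fold, taking 3 counts per library as the floor.

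The interaction test asked whether the female-to-male difference of a member differed between strains, with positive values for a female-to-male ratio that was higher in C3. Only Mup21 of the 9 loci was called, beside 0.131% of all loci called lower and 0.270% called higher. The median value of the 9 loci was -0.55, beside 0.0067 over all loci. Its log2 fold change between the sexes was lower by 3.84 in C3 than in B6 (standard error 0.36, edgeR adjusted p = 4.3e-06), and the value lay between -4.49 and -3.20 within the 3 pools. Without the pool 3 libraries it was -3.66 with an adjusted p of 0.0011 and was not called. Mup14 had a value of 7.04 (standard error 1.29, edgeR adjusted p = 0.0041) and Mup11 of 3.18 (standard error 1.13, edgeR adjusted p = 0.15), neither called. DESeq2 and limma on log2(TPM + 1) called both, and edgeR called Mup14 when B6 F replicate 4 was left out (6.75, adjusted p = 7.0e-04). Both loci had few counts in C3, at most 21 per library for Mup11 and 20 for Mup14. Their C3 sex difference, and so their interaction value, was poorly measured. In limma, adding 1 to C3 means of at most 0.732 TPM presses a C3 sex difference toward 0. These calls thus cannot show whether the fold between the sexes differed between strains. Mup3 and Mup20 had values of -0.55 (standard error 0.15, adjusted p = 0.061) and -1.03 (standard error 0.34, edgeR adjusted p = 0.12). Mup1 had a value of 2.72 (standard error 0.63, edgeR adjusted p = 0.022) and was not called.

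The spread between livers of one group is given for each locus as the coefficient of variation. For Mup3, Mup20 and Mup21 the coefficient of variation of CPM lay between 11.3% and 43.3% over the 4 groups. For Mup7 it reached 90.8% in B6 F and 125% in C3 F, but was 16.3% in C3 M. For Mup1 it was 98.2% in C3 M, where 1 male of pool 3 was high. Mup11 lay above the range of Mup3, Mup20 and Mup21 in all 4 groups, between 47.0% and 64.7%. In B6 F so did Mup1 (70.4%), Mup14 (88.7%) and the short Mup2 locus (56.6%). Some of these values rest on few counts and include counting error. Mup11 had between 3 and 21 counts per library in C3. In B6 F, Mup14 had between 3 and 62 and the short Mup2 locus between 4 and 25. Some other values of the near-identical genes lay within the range of Mup3, Mup20 and Mup21. Among them were Mup1 (37.3%) and Mup14 (37.7%) in B6 M and the short Mup2 locus in B6 M (23.8%) and C3 F (17.9%). This is a description of 8 loci that share libraries, and what sets the spread was not tested.

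**Figure D5:**
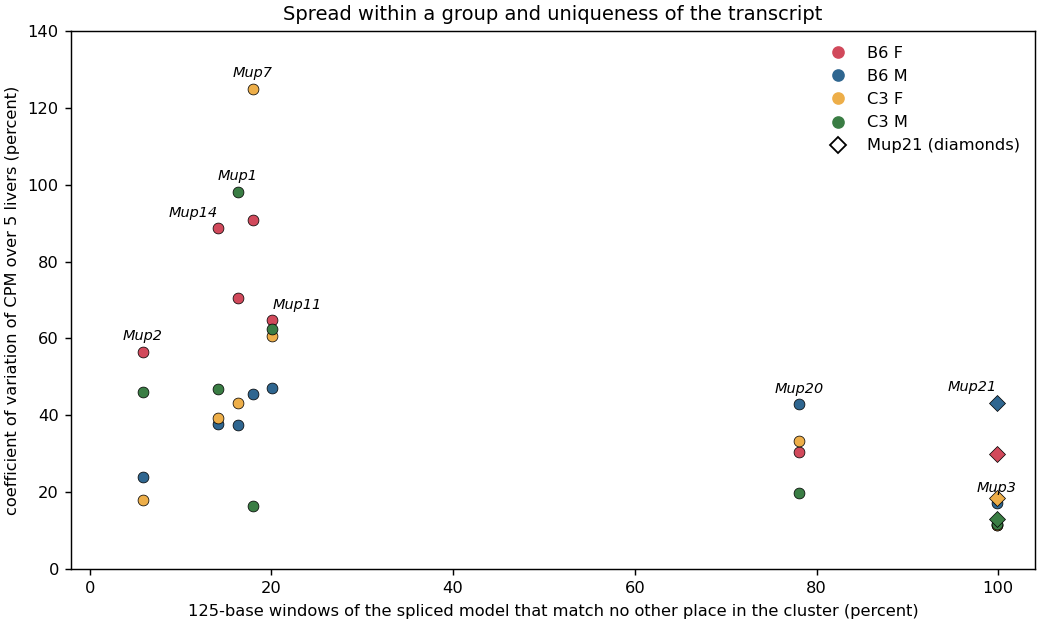
Each point is 1 locus in 1 group, with the percent of its 125-base windows that occur nowhere else in the cluster on the horizontal axis and the coefficient of variation of CPM over 5 livers on the vertical axis, diamonds marking Mup21. Mup3, Mup20 and Mup21 on the right lie at or below 43.3%, and loci on the left run from 16.3% to 125%. Some points on the left rest on few counts, such as Mup11 in C3 (3 to 21 per library), and include counting error.

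The 7 libraries of pool 3 stood apart from the others for a near-identical neighbour of the members. Mup10 was higher in every pool 3 library than in the other libraries of its group, by between 2.0-fold and 4.32-fold in the means of the 4 groups. Of all loci tested, 13.6% likewise lay higher in every pool 3 library of all 4 groups, and 3.86% did so by over 1.5-fold in each, among them Mup10 and no member. Pool was a term in the fit. Its part in the values of Mup10 was not tested.

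Of the 12 other Mup loci, 11 were tested. In B6 females 7 of the 11 were called lower than in males, and in C3 females 3 were, with none higher in either strain. Over all loci tested, 3.12% were called lower in B6 females and 2.79% in C3 females. Between strains, C3 females had 2 lower and 1 higher, and C3 males 3 lower and 2 higher. The shares over all loci were 4.77% lower and 4.63% higher in C3 females, and 5.55% lower and 4.09% higher in C3 males. The median log2 fold change of the 11 loci between the sexes was -2.44 in B6 and -1.85 in C3. Of the 11, all but Mup6 were at least 98.7% identical in coding sequence to another gene of the cluster.

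Mup12 was the other Mup locus called in the interaction. It had 11 ± 6.40 CPM in B6 F, 143 ± 48.2 CPM in B6 M, 3.98 ± 2.97 CPM in C3 F and 758 ± 187 CPM in C3 M (SD, n = 5). It was called in both sex comparisons, was higher in C3 males by 5.95-fold (edgeR adjusted p = 9.5e-06), and had an interaction value of the same sign as that of Mup21 (log2 -4.14 ± 0.50 SE, edgeR adjusted p = 8.6e-05). Mup9 was higher in C3 in both sexes, by 271-fold in females (edgeR adjusted p = 7.9e-08) and 9.38-fold in males (edgeR adjusted p = 4.5e-05), and B6 females had 0.229 ± 0.108 CPM.

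Mup15 and Mup19 were lower in C3 in both sexes, Mup15 by 110-fold and Mup19 by 12.9-fold in males. Mup17 had 847 ± 388 CPM in B6 M and 61.5 ± 30.9 CPM in C3 M, and in B6 F it ranged from 9.49 to 259 CPM. Its sex difference in B6 was not called (log2 fold change -3.40 ± 0.75 SE, edgeR adjusted p = 0.0019). Mup10 was called lower in C3 females than males (log2 fold change -1.34, edgeR adjusted p = 8.1e-05), and Mup16 was called in no comparison.

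Within 1 Mb of the cluster and inside it, 30 loci without a Mup symbol were listed and 23 were tested. Between the sexes 1 was called in B6 and 1 in C3. In B6 it was Ugcg, a ceramide glucosyltransferase gene, higher in females by 1.91-fold (edgeR adjusted p = 1.9e-05). In C3 it was Gm2083, lower in females. The span of Gm2083 covers Mup10 and most of Mup11, so it was not a neighbour separate from the Mup loci. Whether its calls rest on reads of Mup10 or Mup11 was not tested. Between strains, 5 were called higher in C3 females, 4 in C3 males and none lower. Gm2083 was again among them for both sexes. The others included Alad, which makes porphobilinogen in heme synthesis and was higher in C3 by 2.07-fold between females and 2.38-fold between males. In the same order, Hdhd3 was higher by 1.93-fold and 2.24-fold and Gng10 by 1.98-fold and 1.92-fold. The fifth in females, named after its value was seen, was Ptgr1 (1.76-fold). None of the 23 was called in the interaction.

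A list of 24 hormone pathway and transcription regulators was measured beside the members, and all 24 were tested. In B6, 4 were called higher and 1 lower in females, and in C3, 3 were called higher and 1 lower. The shares over all loci were 3.23% higher and 3.12% lower in B6, and 4.11% higher and 2.79% lower in C3. The log2 fold changes of the 24 had medians of 0.20 for B6 and 0.15 for C3, beside 0.0018 and 0.015 over all loci tested. Cux2, a female-specific repressor in liver, had 12.6 ± 6.31 CPM in B6 F and 0.258 ± 0.147 CPM in B6 M, and 23.8 ± 11 CPM in C3 F and 0.289 ± 0.161 CPM in C3 M. Bcl6, a repressor that opposes STAT5 at many liver genes, was 5.44-fold lower in females of B6 (edgeR adjusted p = 7.1e-04). The prolactin receptor gene Prlr and the estrogen receptor gene Esr1 were higher in females of both strains, Prlr by 4.61-fold in B6 and 2.45-fold in C3, and Esr1 by 2.62-fold and 2.02-fold.

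Between strains, 1 regulator was called lower in C3 females and none higher, and 1 was lower and 2 were higher in C3 males. The shares over all loci were 4.77% lower and 4.63% higher in C3 females, and 5.55% lower and 4.09% higher in C3 males. Rsl1, a zinc finger repressor known for holding down male-specific liver genes in females, was the regulator called lower in both sexes. It had 3.63 ± 0.389 CPM in B6 F and 1.60 ± 0.382 CPM in C3 F, a 2.24-fold difference (edgeR adjusted p = 1.6e-05), and was 2.0-fold lower in C3 males (edgeR adjusted p = 1.9e-04). In C3 males, Prlr was 1.97-fold and Igf1, the growth factor made in response to growth hormone, 1.42-fold higher than in B6 males. Zhx2, a transcriptional repressor, was 1.53-fold lower in C3 females than males (edgeR adjusted p = 8.8e-05). None of the 24 was called in the interaction.

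Of 13 other lipocalin and fatty acid binding protein genes, 11 were tested. In B6, 1 was called higher and 1 lower in females, and in C3, 2 higher and 1 lower, with median log2 fold changes of 0.0055 and 0.12. The shares over all loci were 3.23% higher and 3.12% lower in B6, and 4.11% higher and 2.79% lower in C3. Obp2a, an odorant binding lipocalin, was the gene of this list called lower in both strains. It had at most 3 counts in any female, between 54 and 433 in B6 males and between 480 and 923 in C3 males, and was 4.39-fold higher in C3 than in B6 males (edgeR adjusted p = 1.0e-05). Apom was higher in B6 females (1.67-fold), and Ptgds (3.80-fold) and Orm3 (3.70-fold) in C3 females. Between strains, Fabp1 was higher in C3 females (1.45-fold) and Orm2 lower in C3 males (3.02-fold).

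The genes outside the cluster whose log2 CPM followed the members most closely over the 20 libraries were named by Pearson's r. For Mup3 they were Elovl3 (r = 0.98), C6 (r = 0.97) and Tmem243 (r = 0.97). For Mup20 they were Phyh (r = 0.97), Tmem243 (r = 0.97) and Elovl3 (r = 0.97), and for Mup21 Lama3 (r = 0.98), Aox3 (r = 0.97) and Alas2 (r = 0.97). The 20 libraries fall into 4 groups that differ in these genes, so that r includes the differences between groups. Elovl3, a fatty acid elongase, had 9.35 ± 3.32 CPM in B6 F, 757 ± 297 CPM in B6 M, 3.35 ± 1.62 CPM in C3 F and 496 ± 142 CPM in C3 M. Alas2, a heme synthesis enzyme, had 24.6 ± 4.91, 165 ± 18.0, 21.8 ± 5.85 and 214 ± 12.0 CPM in the same order, highest in C3 M as Mup21 was.

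The labelled tissue was checked against marker lists. All 7 hepatocyte markers were tested and their summed level lay between 75896 and 167768 CPM. Of these, Serpina1c was lower in females of both strains and Apoa1 higher in C3 of both sexes. The summed level of 6 Kupffer cell markers was between 394 and 497 CPM in B6 F, between 250 and 380 in B6 M, between 270 and 387 in C3 F and between 186 and 275 in C3 M. None of these 6 was listed at 0, and Vsig4 was called higher in females of both strains. Vsig4 and Csf1r were called lower in C3 of both sexes, and Clec4f in C3 females. The summed level of 5 stellate cell markers was between 521 and 626 CPM in B6 F, between 419 and 477 in B6 M, between 436 and 473 in C3 F and between 360 and 414 in C3 M, with none called in any comparison. Of 5 endothelial markers only Lyve1 was called (lower in C3 females), and of 5 cholangiocyte markers only Sox9 (lower in females of both strains and higher in C3 females than B6 females). Of 6 lymphocyte markers none was called, and their summed level was between 2.85 and 4.96 CPM in B6 F, between 1.22 and 4.42 in B6 M, between 1.89 and 2.75 in C3 F and between 0.658 and 1.11 in C3 M, where it did not overlap C3 F. Their median log2 fold change was 1.43 between the sexes in C3 and -1.53 between the strains in males. The 4 pancreas markers were at 0 in C3 and summed to at most 0.813 CPM in B6, and 1 of them, Cela2a, was tested and called lower in C3 females. All 4 erythroid loci were listed at 0 in every library. Whether their reads were left out for mapping to several places was not tested, so these zeros do not show that blood was absent. The part of cell make-up in the Mup values was not tested.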

How the data were processed

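Paired reads of 125 bases from strand-specific libraries were trimmed with Cutadapt 1.9.1, aligned to mm9 with STAR 2.5.1b and counted on RefSeq genes with featureCounts (Subread 1.5.0-p1), reads with several mappings or overlapping genes being left out. The authors deposited raw counts per locus, without normalization. The authors also deposited TPM values, whose gene length is not defined in the sources used here. The headers of the symbol and identifier columns are exchanged in the deposited tables, which were read by content.

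The tests here used edgeR 4.0.16 under R 4.3.3 on the counts (filterByExpr on 4 groups, TMM, quasi-likelihood fit of group and pool over 20 libraries, Benjamini-Hochberg over 13704 loci). CPM uses effective library sizes. Each edgeR standard error (SE) was derived from the test, as the absolute log2 fold change over the square root of its F statistic. Within-pool differences are of mean log2(CPM + 0.1), and some rest on single livers of a group. DESeq2 1.42.0 on counts and limma 3.58.1 on log2(TPM + 1) were alternatives. The scripts were tested on simulated data.

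Total counts of 27370921 to 46835745 per library set the floor of 3 counts. It covers counting error only, as reads without molecular identifiers are not independent molecules. The groups of 5 mice are biological replicates per the labels. The counts of the 40 pairs of libraries within groups differed by more than sampling noise (chi-square per degree of freedom at least 19.9). Same-numbered mice were not paired.

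Members and gene lists (regulators, other lipocalins, flanking genes, cell markers) were chosen with earlier results of these data known, and no independent support is drawn from them. All member loci are named, with other Mup loci among the 5 highest in mean count or called in at least 3 of 5 tests, listed genes called and among the 4 largest changes of their list, and the 3 genes most like Mup3, Mup20 and Mup21. Coordinates, exon models and coding sequence are from the mm9 reference with GENCODE models, and identity and unique windows were computed from them in Python. The search for windows covered the cluster with 20000 bases on either side. One gene counted in the regulator list is not reported here by name.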

Additional observations from a re-analysis of the deposited data

Results flagged for a closer look

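In groups of 5 livers, a library was taken to stand apart when its gap to the nearest other liver took up most of the range of the group (Dixon's test, 95% level). Of 36 combinations of 9 loci and 4 groups, 6 stood apart, 4 of them in pool 3 libraries. For independent, normally distributed values the test flags about 1 in 20. The loci share libraries and some had few counts, so the 6 cannot be set against that rate. The values are given without an explanation, since none was tested.

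Mup3 stood apart in B6 F replicate 1 (3240 CPM, the other 4 between 2532 and 2617) and in C3 M replicate 4 (7541 CPM, the others between 5597 and 6138). Mup1 stood apart in the same C3 M replicate 4 (19.1 CPM, the others between 3.02 and 4.41). The short Mup2 locus stood apart in B6 M replicate 3 (0.637 CPM, the others between 0.385 and 0.419). These values rest on 26 counts there and on 12 to 17 in the others. All 4 are of pool 3. The others are of pool 1, namely Mup7 in C3 F replicate 4 (21.1 CPM, the others between 1.13 and 4.47) and the long Mup2 locus in B6 F replicate 5 (0.763 CPM, the others between 0.034 and 0.241).

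The female-to-male log2 fold change of Mup21 differed between the strains by -3.84 (C3 minus B6, interaction term, adjusted p = 4.3e-06, edgeR). All 5 females lay below all 5 males in each strain.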

How the results depend on the processing

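The number of Mup members called was within 1.5 times of the reported one under every alternative run for female against male in B6 (7 to 8 of 9 loci) and for C3 against B6 in males (7 throughout). Pool 3 libraries were left out as an alternative chosen after seeing the data. Without them, Mup members called fell from 5 to 3 for female against male in C3, from 6 to 3 for C3 against B6 in females and from 1 to 0 for the interaction, on fewer libraries. In the interaction, Mup members called rose from 1 to 3 with DESeq2, with limma on TPM and at an adjusted p under 0.05. Mup11 and Mup14, both with few counts in C3, were the loci added with DESeq2 and limma. Mup1 and Mup14 were those added at an adjusted p under 0.05. Leaving out 1 library gave 8 for female against male in B6, 4 to 5 in C3, 5 to 7 for C3 against B6 in females, 7 in males and 1 to 2 in the interaction (2 without B6 F replicate 4). The fit with a replicate block gave 8, 5, 7, 7 and 1 Mup members called in the 5 comparisons. Same-numbered mice were taken to share only a number. Correlations of their deviations ranged from -0.46 to 0.63, and from -0.20 to 0.32 with pool taken out.

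The sign changed for 1 value, that of Mup1 between C3 and B6 females, which was not called (-0.023 without B6 F replicate 1, -0.012 without B6 F replicate 4 and -0.21 without pool 3, with leave-one-out values from -0.023 to 0.74). Other calls lost were that of Mup1 between the sexes in C3 without the pool term (adjusted p = 0.0040), that of Mup14 between females under limma (0.0087) and without the pool term (0.0035) and in 8 of 10 fits that left out 1 library, and that of the short Mup2 locus between females when only those groups were fitted (0.0017). DESeq2 gained calls for the short Mup2 locus between the sexes in C3 (adjusted p = 4.1e-04) and for the Mup2 locus of 84130 bases between females (3.8e-05). The causes were not tested. Beside the Mup members, the calls over all loci in the 5 comparisons numbered 869, 945, 1288, 1321 and 55. They numbered 421, 482, 815, 881 and 20 without the pool term, 380, 428, 626, 786 and 4 without pool 3, and 4742, 5479, 4515, 4733 and 405 at an adjusted p under 0.05. DESeq2 gave 181 in the interaction, and fitting only the groups compared gave 625 between the sexes in C3. Limma on TPM shifted the median of all loci by 0.11 in B6 and 0.10 in C3 between the sexes, with no member changing direction.

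Depth limits Mup4 and Mup5, which were at the floor in all groups, and the comparison of the sexes in C3 for Mup11, Mup14 and both long Mup2 loci, which had few or no counts there. The interaction values of Mup11 and Mup14 share this limit. For Mup1, Mup2, Mup7, Mup11 and Mup14 the counts cover only the part of the transcript that can be placed.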
